A study of Rattus norvegicus with 14 samples.

Results

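Immediate early genes and their feedback inhibitors were followed in the small intestine of rats aged 20 days, perfused with solutions labelled HG and HF for 4 h or 20 min. The list held 40 genes, and a probe belonged to it when its gene symbol in the platform annotation was on the list. The array carried 32 probes for 30 of the 40, among 4952 probes in all, and the other 10 listed genes (Fosb, Jun, Jund, Ier2, Ier3, Nr4a3, Klf2, Btg2, Maff and Mafk) had no probe under those symbols. Immediate early genes are switched on within minutes of a stimulus, without new protein synthesis, by factors already bound at their promoters such as SRF, which MAP kinases activate through its partners, and CREB, which cAMP and calcium signals activate. Their products are mostly short-lived transcription factors, together with phosphatases, RNA-decay proteins and repressors that shut the same signals off again. In the gut they are known to respond to growth factors, feeding, stretch, wounding and handling of the tissue.

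Each array compared 2 RNAs in 2 colours and gives 1 ratio per probe. At 4 h, 5 arrays each set an HG RNA against the HF RNA of the same pair number, and 4 arrays did so at 20 min. The same RNA was put in both channels of 3 other arrays (an HG RNA of pair 1, and an HG and an HF RNA of pair 3, all of 4 h), so they show what a probe reads when there is no difference between the RNAs. A further array repeated pair 2 of 4 h (array 6). The title of 1 array names only a capture primer, which is read here as primers in place of tissue RNA (the primer array). The labels do not spell out HG and HF, which are read here as high glucose and high fructose, as the study is known. Age is labelled in days on the arrays 1 to 5 at 4 h and as 20 with no unit on arrays 6 to 13. The labels say neither how many animals stood behind a pair nor whether RNA was pooled, so p-values measure only the spread between these arrays. No array set perfused against unperfused tissue. A response that was equal with both solutions, or to perfusion itself, therefore adds nothing to a ratio here. The labels name small intestine and do not say which layers of its wall were used. A change in the number of cells of a type cannot be told apart from a change in RNA per cell. Levels are not given by ratios, so the labelled tissue could not be checked against the levels of its markers.

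Neither direction, base nor dye correction of the deposited log ratios is stated in the sources used here. Base 2 is assumed, and every value below is on that scale after each array was centred on its median. Positive values probably stand for more RNA after HF. The basis is Slc2a5, which encodes the fructose transporter GLUT5 and is known to be induced by fructose: its ratio lay between 1.33 and 1.95 on the 5 arrays at 4 h, between -0.44 and -0.01 at 20 min and between -0.17 and 0.16 on the same-RNA arrays. On array 6 it was -1.66. The title of array 6 marks HG with a 5 and HF with a 3, which may stand for swapped dyes, and that array was left out of the tests. The SD of the deposited values over all probes was 0.33 to 0.40 on the 9 arrays at 4 h and 20 min in the fit, 1.39 on the first same-RNA array, 0.35 and 0.30 on the other two, 0.82 on array 6 and 0.18 on the primer array. The number of arrays and the wide spread of the first same-RNA array, which had the lowest weight (0.42) when arrays were weighted, limit the precision, and spot intensities were not analysed here.

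Promoter sequences of some members are shown with matches, by letters, to elements through which immediate early genes are known to be induced. Whether these matches act in these genes was not tested. The RefSeq table of promoters (GRCr8, 250 bases before to 50 after each start) held 29 promoters of 25 measured members, and none for Arc, Atf3, Egr3, Klf10 and Myc. A CArG box, the site of SRF, was found by letters in 5 of the 25 members (20%) against 1.77% of all 27457 genes in the table, with both strands searched. The full cAMP response element, TGACGTCA, was found in 3 (12%) against 2% of all genes, and its 5-base core TGACG, which also lies inside every full element, in 15 (60%) against 23%. The sequences below are the stretches before the start around these matches, 5′ to 3′ on the strand of the gene, with the CArG boxes of Dusp5, Egr2, Klf6 and Zfp36 and the cAMP response elements of Crem, Dusp1 and Plk2 in capitals. Egr1 also held CArG boxes and is not printed. Dusp5 lies at chr1:262543672-262543731 on the plus strand, Egr2 at chr20:21054495-21054544 on the minus strand, Klf6 at chr17:69458650-69458699 on the minus strand and Zfp36 at chr1:92799111-92799160 on the minus strand. Crem lies at chr17:58984721-58984768, Dusp1 at chr10:17184709-17184756 and Plk2 at chr2:43702450-43702497, all on the plus strand.
Dusp5: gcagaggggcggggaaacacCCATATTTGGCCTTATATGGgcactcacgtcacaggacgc
Egr2: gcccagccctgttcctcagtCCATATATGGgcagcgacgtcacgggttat
Klf6: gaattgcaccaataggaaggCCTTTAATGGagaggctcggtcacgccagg
Zfp36: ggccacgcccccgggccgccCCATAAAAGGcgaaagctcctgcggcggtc
Crem: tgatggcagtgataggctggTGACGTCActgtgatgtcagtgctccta
Dusp1: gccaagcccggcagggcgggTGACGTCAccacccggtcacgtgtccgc
Plk2: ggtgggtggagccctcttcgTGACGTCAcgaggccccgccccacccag

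The first comparison asked whether the ratio of the members differed between the late and the early time. No member passed limma's test at an adjusted p below 0.05 over all features (0 of 30, against 0.598% of all 4682 features). At an unadjusted p below 0.05 there were 6 of 30 (20%, against 13.5% of all features), of which Zfp36 had a higher ratio at 4 h (6.3% of all features) and Dusp6, Klf10, Klf4, Arc and Sgk1 a lower one (7.22%). The difference was below 0 for 20 of the 30 members and above 0 for 10, with a median of -0.08, beside 2433 of 4682 features below 0 and a median of -0.01 over all of them. The median absolute difference was 0.13 for the members and 0.13 for all features. The arrays of 4 h and 20 min did not overlap in 3 members, Zfp36, Dusp6 and Klf4 (10%, against 6.54% of all features). The plot of cumulative shares sets the members beside all features in the 3 comparisons.

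**Figure D1:**
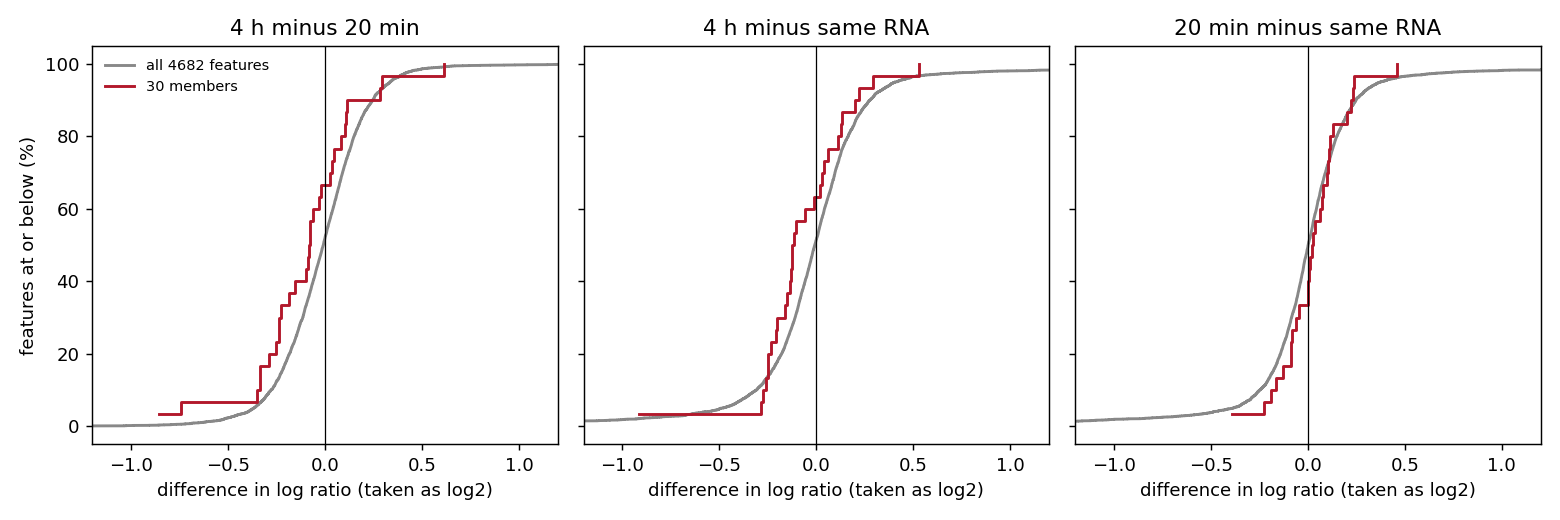
Cumulative share (%) of features at or below each difference in log ratio (taken as log2) for the 30 members (red) and all 4682 features (grey), for 4 h minus 20 min, 4 h minus same RNA and 20 min minus same RNA. The members' curve lies left of the grey one around the middle in the first 2 panels (medians -0.08 and -0.12) and near it in the third (0.02); values beyond 1.2 in size are not drawn.

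The RNA-decay factor Zfp36 had the smallest p of the members. Zfp36 (tristetraprolin) binds AU-rich elements in the messages of cytokines and of other immediate early genes and hastens their decay. Its ratio was 1.29, 1.55, 1.54, 1.11 and 1.01 on the 5 arrays at 4 h and 0.56, 0.74, 0.60 and 0.85 on the 4 arrays at 20 min. Every array at 4 h lay above every array at 20 min. The same-RNA arrays read 0.97, 1.31 and 0.96, so that the values at 20 min lay below them and those at 4 h overlapped them. The probe thus had a ratio near 1 where both channels held the same RNA. It read 0.87 on the primer array, which is taken to have held no tissue RNA. Array 6 read 1.44. The difference between 4 h and 20 min was 0.61 ± 0.13 (SE; 95% interval 0.32 to 0.91; limma adjusted p = 0.0801), and against the same-RNA arrays it was 0.22 ± 0.15 at 4 h and -0.39 ± 0.15 at 20 min (limma adjusted p = 0.576 and 0.801). Without 4 h replicate 5 the adjusted p of the first difference was 0.048, the 1 of 22 alternatives in which Zfp36 passed. Quantile normalization took the difference to 1.14.

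Over the 12 arrays of the fit, the features with the ratios most like those of Zfp36 were Rpl31 (Pearson r = 0.93, Spearman rho = 0.92), Rpl35 (0.93 and 0.90), Rpl13 (0.92 and 0.90), Hnrnpa3 (0.92 and 0.89) and Pfkm (0.86 and 0.78). The first 3 encode ribosomal proteins of the large subunit, Hnrnpa3 an RNA-binding protein and Pfkm the muscle form of phosphofructokinase. These correlations describe 12 arrays in 3 groups, and the points share the group means. Unlike Zfp36, the 5 had means between -0.04 and 0.06 on the same-RNA arrays.

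Among the feedback phosphatases, Dusp6 had the largest difference of all members. Dusp6 removes the activating phosphates from ERK in the cytoplasm and is itself induced by ERK signalling. Its ratio was -0.66, -0.35, -0.39, -1.32 and -0.18 at 4 h, and 0.21, 0.43, -0.14 and 0.59 at 20 min. All 5 arrays at 4 h were negative and below all at 20 min, though the nearest arrays of the 2 groups lay close together. The same-RNA arrays read 0.13, 0.39 and 0.48, also above every array at 4 h. The difference between the times was -0.85 ± 0.22 (SE; 95% interval -1.33 to -0.37; limma adjusted p = 0.13), and between 4 h and the same-RNA arrays -0.91 ± 0.24 (95% interval -1.44 to -0.39; limma adjusted p = 0.237). At 20 min the difference from the same-RNA arrays was -0.06 ± 0.25. On array 6 Dusp6 read 2.38, where array 2, of the same pair of RNAs, read -0.35. Taken from the same-RNA mean, array 6 thus lay 2.05 above and the mean of the 5 arrays at 4 h lay 0.91 below. Averaging array 6 with array 2 as deposited took the difference between the times to -0.58 (limma adjusted p = 0.662), and averaging it after turning its sign about the same-RNA mean took it to -0.99 (limma adjusted p = 0.0972).

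Dusp1 and Dusp5, phosphatases of the same family that act in the nucleus, varied more between arrays than they differed between times. Dusp1 read -0.84, -0.33, 0.26, 0.26 and -0.58 at 4 h and 0.29, -0.11, -0.27 and 0.45 at 20 min, and 3 of the 5 arrays at 4 h lay below every array at 20 min while the other 2 fell within their range. Its difference was -0.34 (95% interval -0.85 to 0.18), and its pooled SD within groups, 0.39, was larger than in 89% of all features. For Dusp5 the difference was -0.10 (-0.48 to 0.28). Btg1, an antiproliferative protein that recruits the deadenylation machinery, was among the least variable members, with a pooled SD of 0.11 and a difference of 0.11 (-0.09 to 0.31).

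**Figure D2:**
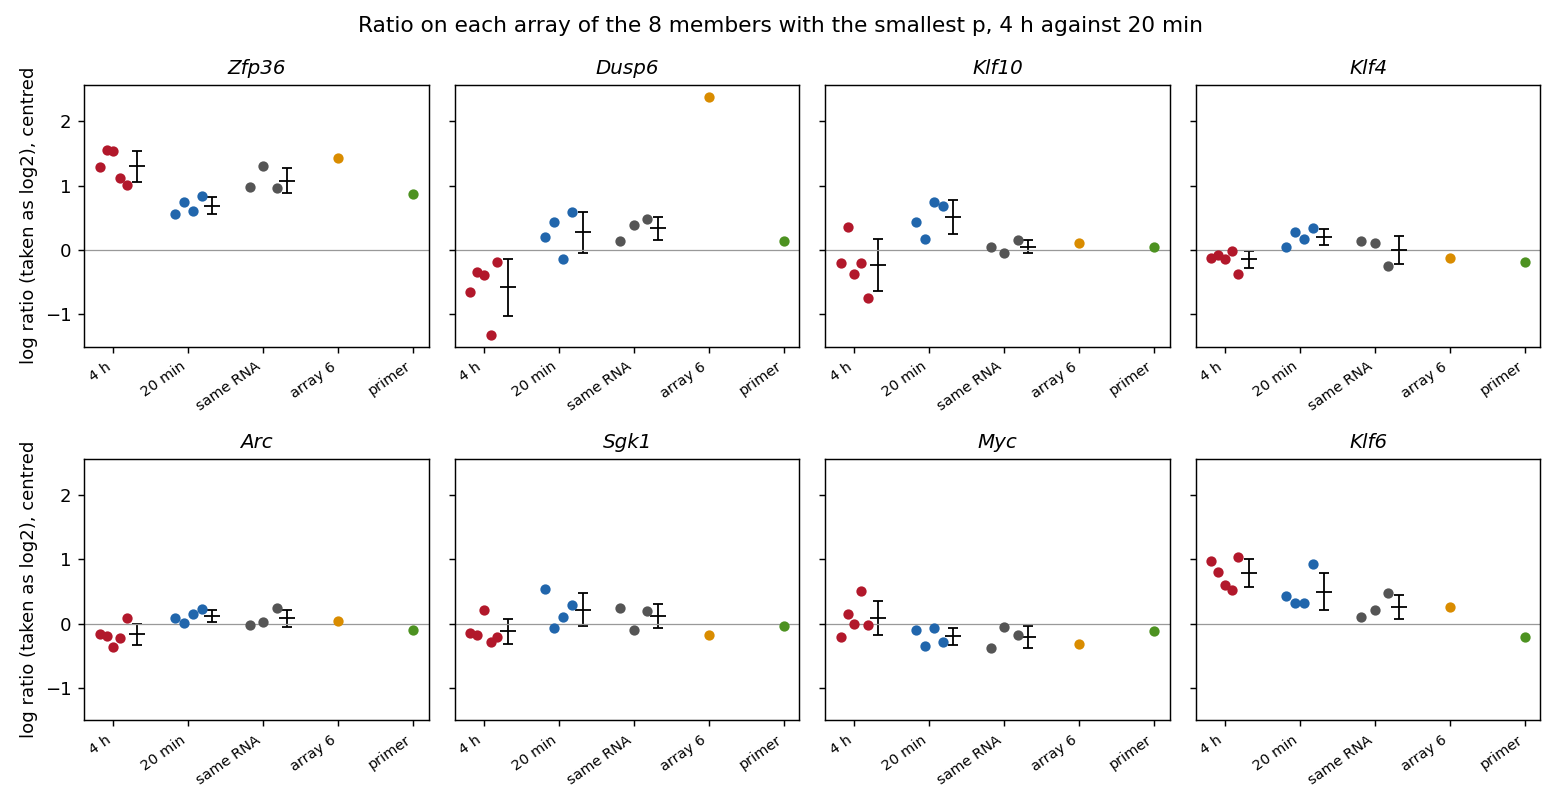
Log ratio (taken as log2, centred per array) of the 8 members with the smallest p for 4 h minus 20 min, on each array: 5 at 4 h, 4 at 20 min, 3 with the same RNA in both channels, array 6 and the primer array. Points are arrays and the black bar gives mean and SD; Zfp36 sits near 1 on the same-RNA and primer arrays too, and Dusp6 reads 2.38 on array 6 against -0.18 to -1.32 at 4 h.

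The 3 measured Krüppel-like factors had differences of both signs. Klf10, a zinc finger factor induced early by TGF-beta, had a ratio of -0.20, 0.36, -0.37, -0.20 and -0.75 at 4 h and of 0.43, 0.17, 0.75 and 0.68 at 20 min. The groups overlapped through 4 h replicate 2 alone, the only positive array of that time. The 20 min arrays all lay above the same-RNA arrays (0.04, -0.04 and 0.16). The difference between the times was -0.74 ± 0.19 (SE; 95% interval -1.16 to -0.32; limma adjusted p = 0.13), made up of -0.29 at 4 h and 0.46 at 20 min relative to the same RNA (limma adjusted p = 0.629 and 0.801). Without 4 h replicate 2 it was -0.89, with an adjusted p of 0.0495, the 1 alternative of 22 in which Klf10 passed.

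Klf4, which restrains division in the differentiated cells of the intestinal villus, read -0.13, -0.07, -0.14, -0.02 and -0.37 at 4 h and 0.04, 0.27, 0.17 and 0.34 at 20 min. Every array at 4 h was below 0 and every array at 20 min above it. The same-RNA arrays, at 0.15, 0.11 and -0.25, overlapped both groups. The difference was -0.35 ± 0.11 (SE; 95% interval -0.60 to -0.11; limma adjusted p = 0.193) and stayed between -0.41 and -0.30 with any 1 array left out.

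Klf6, a factor known from wound and injury responses, had the opposite sign. It read 0.98, 0.81, 0.61, 0.53 and 1.03 at 4 h, above all 3 same-RNA arrays (0.10, 0.21 and 0.47), and 0.43, 0.33, 0.33 and 0.92 at 20 min. The ratio was positive on all 12 arrays of the fit. The 4 h arrays differed from the same-RNA arrays by 0.53 ± 0.17 (SE; 95% interval 0.16 to 0.90; limma adjusted p = 0.35) and from those at 20 min by 0.29 ± 0.15 (-0.04 to 0.63; limma adjusted p = 0.447). Replicate 4 at 20 min stood apart from the other three.

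The factors of AP-1 are dimers of Fos and Jun proteins that carry much of the immediate early response. They were read together with the related factor Atf3, and none showed a difference past the test. Of 4 measured members 3 lay below 0 and 1, Atf3, above, with a median of -0.07. Fosl1 (Fra-1) differed by -0.23 (95% interval -0.67 to 0.22), Junb by -0.06 (-0.39 to 0.27) and the stress-induced Atf3 by 0.12 (-0.23 to 0.46). Fosl2 (Fra-2) read -1.01, -0.66, -0.60, -1.08 and -0.49 at 4 h, -0.60, -1.11, -0.55 and -0.50 at 20 min, and -0.73, -0.34 and -0.62 with the same RNA in both channels. It was negative on all 12 arrays and on array 6 (-1.29), and at 0.07 on the primer array. A mean ratio of -0.69 over the 12 arrays thus stood on the arrays with no difference in RNA as well, and the difference between the times was -0.08 (-0.43 to 0.28).

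The EGR factors, zinc finger proteins whose genes are classical targets of SRF and its partners, had differences between the times close to 0. Egr1 differed between the times by -0.08 (95% interval -0.43 to 0.28), Egr2 by -0.08 (-0.41 to 0.25), Egr3 by 0.10 (-0.25 to 0.46) and Egr4 by 0.05 (-0.17 to 0.27). These intervals leave room for differences up to 0.46 in size. Egr1 ranged from -0.44 to 0.26 at 4 h and from -0.16 to 0.44 at 20 min, and the largest ratio of Egr2 on any array of the fit, 0.67, was on the first same-RNA array. The orphan nuclear receptors Nr4a1 and Nr4a2, induced early by cAMP and calcium, differed by -0.15 (-0.40 to 0.09) and -0.03 (-0.31 to 0.24). Nr4a1 was the steadiest member at 20 min, with ratios of 0.23 to 0.29 and an SD of 0.03, but the same-RNA arrays gave 0.06 to 0.48.

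Myc, which drives growth and division and is induced a little later than Fos, read -0.20, 0.15, 0.00, 0.52 and -0.02 at 4 h, and -0.10, -0.34, -0.06 and -0.29 at 20 min. The same-RNA arrays, -0.38, -0.05 and -0.18, covered about the same range as those of 20 min, and both groups were negative on every array. The difference between the times was 0.29 ± 0.14 (SE; 95% interval -0.02 to 0.59; limma adjusted p = 0.405). Ier5, an early response gene measured by 2 probes, differed by 0.03 (-0.18 to 0.24), and its probes gave 0.06 and 0.00.

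Kinases that are themselves induced as early genes all lay below 0. Sgk1, which raises sodium absorption through epithelial channels and transporters, read -0.15, -0.18, 0.22, -0.28 and -0.20 at 4 h and 0.53, -0.06, 0.10 and 0.29 at 20 min. Of the 4 h arrays 4 were negative and replicate 3 was not, and it overlapped the 20 min arrays. The difference was -0.33 ± 0.14 (SE; 95% interval -0.64 to -0.02; limma adjusted p = 0.334). The salt-inducible kinase Sik1 differed by -0.24 (-0.79 to 0.31), and the polo-like kinases Plk3 and Plk2 by -0.19 (-0.44 to 0.07) and -0.09 (-0.43 to 0.26). None of the 4 passed the test.

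Of the effector proteins, Arc, a synaptic protein whose gene is used as a marker of activity in neurons, read -0.15, -0.20, -0.37, -0.22 and 0.10 at 4 h and 0.08, 0.00, 0.15 and 0.23 at 20 min. All but replicate 5 at 4 h lay below every array at 20 min. The difference was -0.29 ± 0.10 (SE; 95% interval -0.51 to -0.06; limma adjusted p = 0.252). The matricellular proteins Ccn1 and Ccn2, targets of SRF and YAP, differed by -0.24 (-0.79 to 0.31) and -0.25 (-0.68 to 0.17), and Ccn2 read 1.08 on array 6. Ptgs2, the inducible cyclooxygenase, was measured by 2 probes that disagreed: they differed between the times by -0.37 and 0.44, and their mean by 0.04 (-0.33 to 0.40). Among the repressors, Crem, whose early product ICER shuts off cAMP-induced genes, differed by -0.02 (-0.27 to 0.23), and Nfil3, a bZIP repressor tied to the circadian clock, by 0.08 (-0.31 to 0.48).

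**Figure D3:**
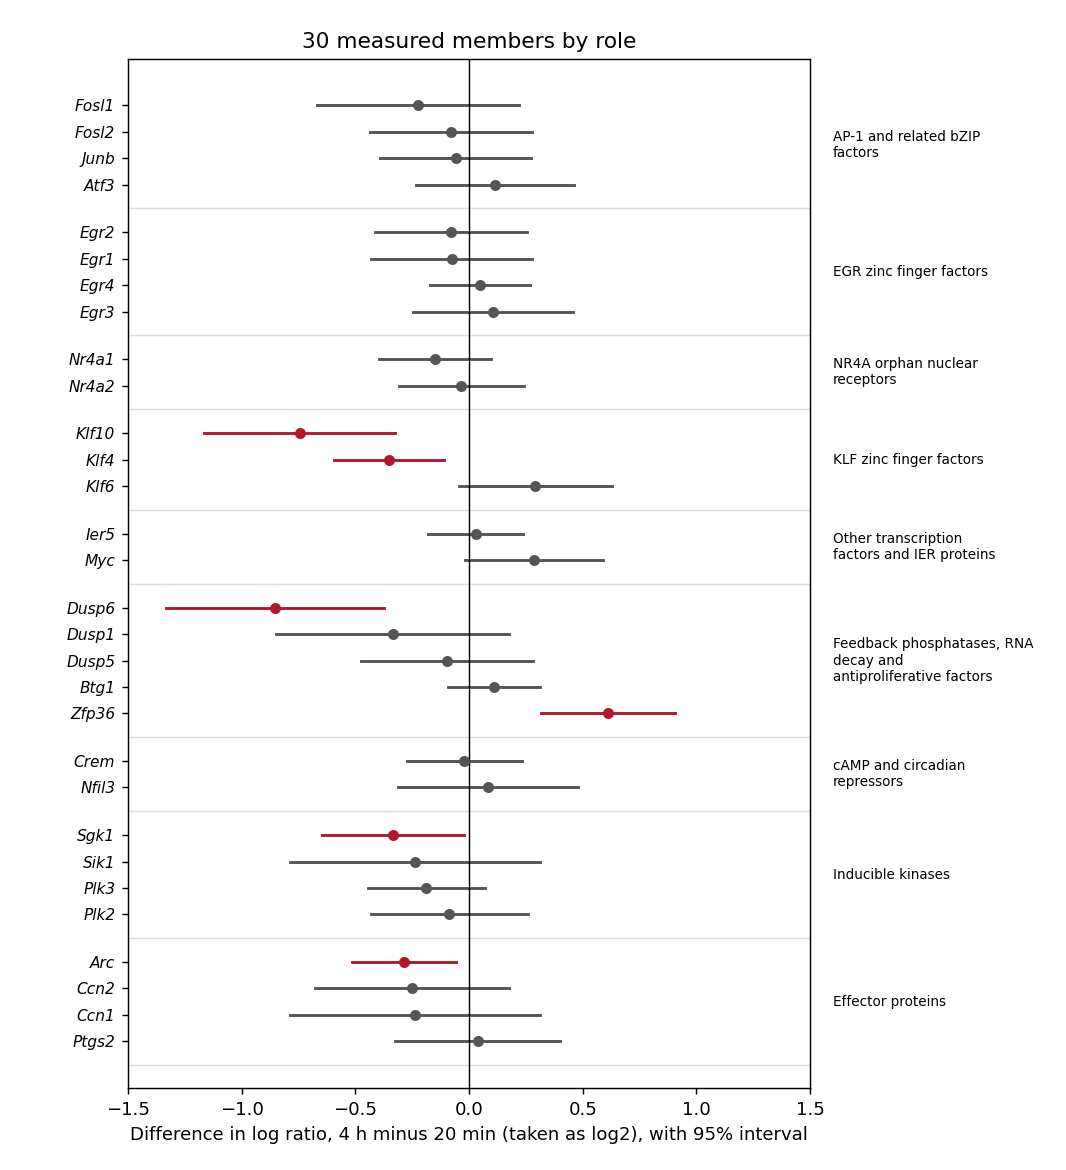
Difference in log ratio (taken as log2) between 4 h and 20 min for each of the 30 measured members, by role, with its 95% interval from limma. Red marks the 6 members whose interval leaves out 0 (Klf10, Klf4, Dusp6, Zfp36, Sgk1 and Arc); none of them passed after adjustment over all 4682 features.

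The intervals set what these arrays could show. Their distance from the estimate to either end lay between 0.20 and 0.55, with a median of 0.34 for the members and 0.30 for all features. In 28 of the 30 members the whole interval lay within -1 and 1, and in 17 within -0.5 and 0.5. The exceptions beyond 1 were Dusp6 and Klf10. A difference beyond 0.5 in size was estimated in 3 members, against 3.59% of all features. Spread within groups was a little wider for the members, with a median SD of 0.24 against 0.21.

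The differences between the times can be set beside the promoter elements. Of the 5 with a CArG box, Zfp36 and Klf6 had differences of 0.61 and 0.29 and Egr1, Egr2 and Dusp5 of -0.08, -0.08 and -0.10. The 3 with a full cAMP response element, shown above, all lay below 0, at -0.34 for Dusp1, -0.09 for Plk2 and -0.02 for Crem. All 3 intervals held 0, and the sign changed in 4 of 22 alternatives for Crem and in 1 for Plk2. With the 5-base core 13 of 15 lay below 0, beside 20 of 30 for all members and 52% of all features. The 30 include the 5 members without a promoter, so the bases are unlike. Of these 5, Atf3, Egr3 and Myc lay above 0 and Arc and Klf10 below. The 9-base EGR site, written GCGNGGGCG and searched on both strands, was found in Zfp36, Btg1, Dusp5, Fosl2, Nr4a1 and Sik1 (24%, against 5.53% of all genes), of which 2 lay above 0. The AP-1 site TGANTCA was found in Sgk1 alone (4%, against 8.04%), and the letters TATAAA in 6 members (24%, against 15.3%), Ccn1, Ccn2, Ier5, Junb, Klf4 and Sgk1, of which 5 lay below 0. Matches were counted in the whole window of 300 bases and describe letters only.

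The next comparisons set each time against the arrays with the same RNA, which were all of 4 h and serve both times. At 4 h 0 of 30 members passed (0.0641% of all features did), and 3 had an unadjusted p below 0.05 (10%, against 9.97% of all features): Dusp6, Klf6 and Arc. The difference was below 0 in 19 and above 0 in 11, with a median of -0.12 against -0.01 over all features. The median was nearer 0 without same-RNA replicate 1 (-0.04), 4 h replicate 5 (-0.04) or 4 h replicate 2 (-0.07), with array weights (-0.06), and with the pair number as a block or array 6 turned and averaged in (both -0.07). The 4 h and same-RNA arrays did not overlap in Dusp6 and Klf6 (6.67%, against 6.71%). Arc differed by -0.25 ± 0.11 (SE; limma adjusted p = 0.492), Plk3 by -0.27, Nr4a2 by -0.26 and Myc by 0.29. Crem, at 0.20, had 5 positive arrays at 4 h, between 0.03 and 0.25.

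At 20 min 0 of 30 passed (0.0427% of all features did), and Zfp36 alone had an unadjusted p below 0.05 (3.33%, against 5.21% of all features). The members lay above 0 in 20 and below in 10, with a median of 0.02 against 0.00 over all features. The median turned to -0.02 without 20 min replicate 4 and to -0.03 with the pair number as a block, so its sign depends on these choices. The arrays did not overlap in Zfp36 and Klf10 (6.67%, against 7.01%). The 3 Krüppel-like factors all lay above the same-RNA mean at 20 min, by 0.46 for Klf10, 0.24 for Klf6 and 0.20 for Klf4. Apart from these and Zfp36 (-0.39), the differences at 20 min were between -0.23 (Nr4a2) and 0.23 (Dusp5).

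**Figure D4:**
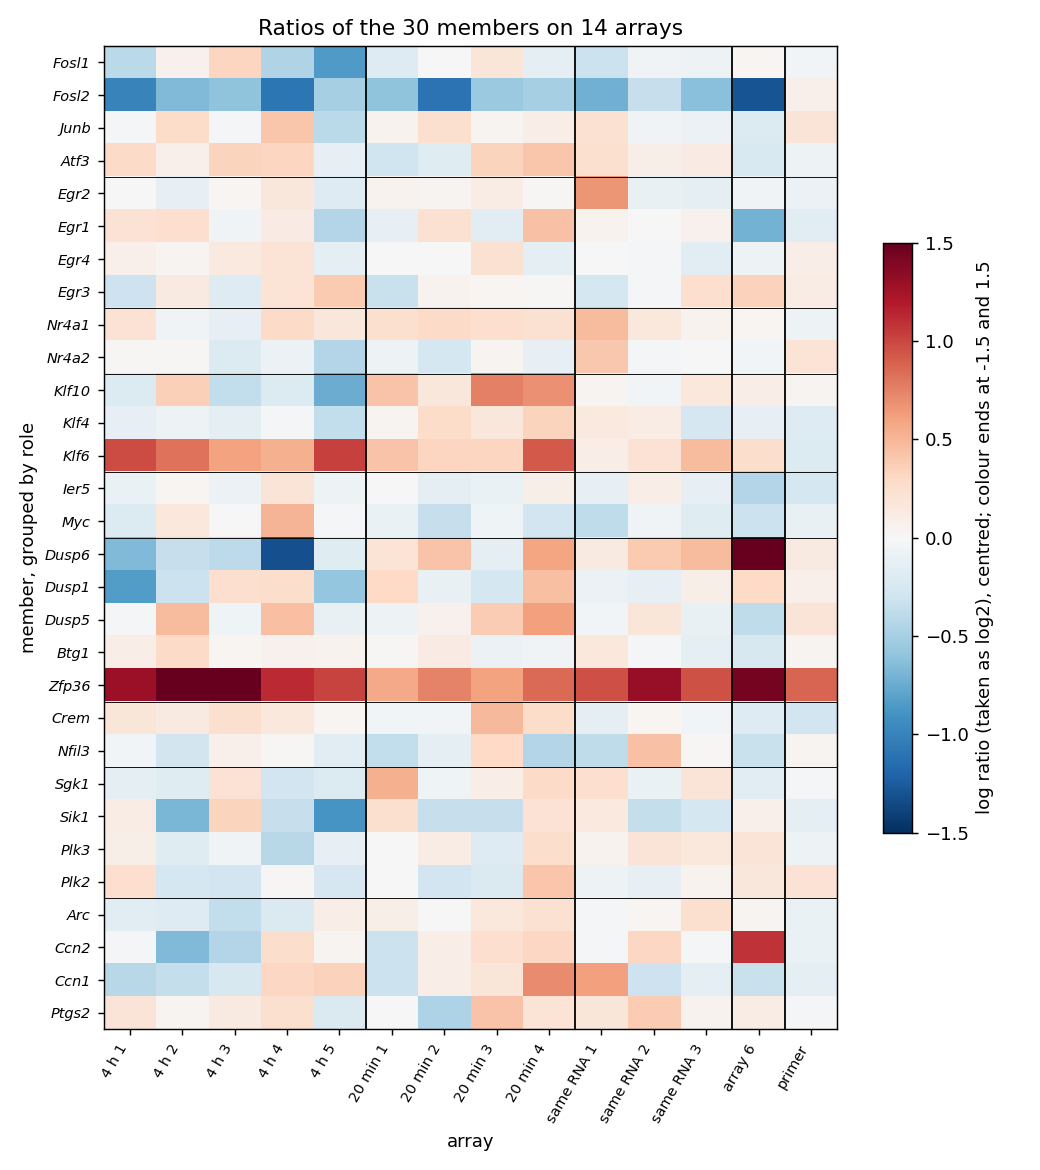
Log ratio (taken as log2, centred per array) of the 30 members (rows, grouped by role) on the 14 arrays (columns), from blue (negative) to red (positive), with the colour ending at -1.5 and 1.5. Zfp36 is red and Fosl2 blue on the same-RNA arrays as well as at 4 h and 20 min, and Dusp6 turns from blue at 4 h to red on array 6, where its value of 2.38 lies beyond the colour scale.

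On array 6, members turned sign in a share near that of all features. Relative to the same-RNA mean, 16 of 30 members (53.3%) had the opposite sign on array 6 to that on the 5 arrays at 4 h, beside 45.2% of all features. Both differences were taken from that 1 mean, and whether the dyes were swapped was not tested. Dusp6 turned from -0.91 to 2.05 and Ccn2 from -0.25 to 1.00. Klf6, at 0.53 on the 5 arrays, was at 0.00 on array 6, and Fosl2 (-0.21 and -0.73) kept its sign. The median ratio of the 30 members on single arrays ranged from -0.15 to 0.16 at 4 h, from 0.00 to 0.25 at 20 min and from -0.01 to 0.05 with the same RNA, and the 3 groups overlapped.

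Genes around the members in the same pathways were read from 3 further lists. Of 56 listed genes of upstream signalling (MAP kinases, protein kinase A, calmodulin kinases, SRF and CREB) 33 were measured, 0 passed in each of the 3 comparisons, and for 4 h minus 20 min 3 had an unadjusted p below 0.05 (Map2k5, Camk2b at 0.33 and Prkcd), with a median of 0.01. That share, 9.09%, was below the 13.5% of all features. Map2k5, the kinase that activates ERK5, differed by -0.68 ± 0.21 (SE; limma adjusted p = 0.179), and Prkcd, a protein kinase C isoform activated by diacylglycerol, by -0.28. Egfr, the receptor of epidermal growth factor, differed by -0.18. Of 69 other early response and feedback genes 42 were measured and 0 passed in each comparison, with a median of -0.05 between the times. An unadjusted p below 0.05 between the times was found for 4 of them (9.52%, against 13.5% of all features). The smallest p belonged to Trib3, a pseudokinase induced by stress of the endoplasmic reticulum (0.65 ± 0.13, SE; limma adjusted p = 0.0542), and Nab1, a corepressor that binds EGR proteins (-0.54 ± 0.11, SE; limma adjusted p = 0.0581). Klf5, another Krüppel-like factor of the gut, differed by -0.24, and Snai1, a repressor of epithelial genes, by 0.46. Of 39 delayed targets 34 were measured and 0 passed, and 7 had an unadjusted p below 0.05 between the times (20.6%, against 13.5% of all features), 2 above 0 and 5 below. The 4 with the smallest p were, in that order, the chemokine gene Ccl2 (-0.55 ± 0.15, SE; limma adjusted p = 0.13), Bdnf (-0.36), Vegfa (0.64) and the chemokine gene Cxcl1 (-0.60). Vegfa also had a mean of -1.82 on the same-RNA arrays and Bdnf one of -0.43, so both were away from 0 with no difference in RNA. The list had a median of -0.03.

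Marker lists of 6 cell classes were set beside these values, and their part in the results was not tested. No marker passed between the times. An unadjusted p below 0.05, which 13.5% of all features had, was found for 3 of 10 enterocyte genes, Apoa1 (-0.44), Apoa4 (-0.39) and Fabp2 (-0.50), while the enterocyte gene Si was at 0.34 without it. It was also found for Cald1 (-0.34) and Cnn1 (-0.47) of smooth muscle, Tek (-0.40) of endothelium, Itgam (-0.33) of immune cells and Tac1 (0.32) of enteric neurons. The median difference between 4 h and 20 min was 0.02 for enterocyte genes (10 of 12 measured, 5 below 0), -0.11 for smooth muscle (7 of 12, 6 below 0), 0.02 for enteric neuron and glia (15 of 18, 5 below 0), 0.10 for immune cells (10 of 20, 3 below 0), -0.11 for endothelium and fibroblasts (13 of 14, 11 below 0) and -0.05 for goblet, Paneth and endocrine cells (13 of 17, 7 below 0). The median ratio of the smooth muscle genes ranged from -0.31 to 0.06 over the arrays at 4 h and from -0.05 to 0.19 over those at 20 min, and that of the endothelial and fibroblast genes from -0.17 to -0.04 and from -0.09 to 0.13. The smooth muscle, the endothelial and fibroblast and the goblet, Paneth and endocrine lists thus had medians below 0, as the members did. The enterocyte, the enteric neuron and glia and the immune lists had medians above 0.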

How the data were processed

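The values are log ratios as the authors deposited them, taken as log2, for 4952 probes on 14 arrays of 2 colours. Their medians per array, -0.07 to 0.02, were already near 0. How they were scanned, background-corrected and normalized, their base and their direction are not given in the labels or files used here. Any base other than 2 would rescale all differences alike and leave p-values and calls as they are. Probes were named through the platform annotation, and all 32 member probes were found by Entrez identifier in the GRCr8 gene table with 0 symbols changed. Values were centred on the median of each array, and probes of 1 symbol were averaged, which left 4682 features. A single limma 3.58.1 fit in R 4.3.3 (lmFit, eBayes) held 12 arrays in 3 groups, with 9 residual and 2.84 prior degrees of freedom. Adjusted p-values are Benjamini-Hochberg over all features of a comparison, called below 0.05, and the 95% intervals come from the moderated fit. No filter on dim spots was used. Array 6 and the primer array were left out of the fit. Members described array by array are those called, those whose 4 h and 20 min arrays do not overlap, and the 8 with the smallest p between the times; Dusp1 and Fosl2 were added after their values were seen. From other lists, genes among the 4 with the smallest p are named. The members, lists and treatment of array 6 were chosen with earlier results of these data known. The fit was run on simulated ratios with known differences, as a check of the code. These were larger than any member's difference in the main fit, so power at the members' sizes was not measured. Alternatives were other scalings, treatments of array 6, weights, samples in the fit, a pair block, and leaving out each array.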

Additional observations from a re-analysis of the deposited data

Results flagged for a closer look

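In 3 of 60 groups of arrays examined, 1 array lay far from the others of its group, a share that chance also gives (about 5%). Egr3 read -0.33 on 20 min replicate 1, where the other arrays of that time read 0.02 to 0.05. Klf6 read 0.92 on 20 min replicate 4 against 0.33 to 0.43 on the others, and Sgk1 read 0.22 on 4 h replicate 3 against -0.28 to -0.15 on the others. Of the members, 2 had a ratio on array 6, which no test used, that was large for that array and beyond all same-RNA arrays: Dusp6 at 2.38 against 0.13 to 0.48, and Zfp36 at 1.44 against 0.96 to 1.31. On array 6 9.61% of all features lay beyond the same limit of 1.34 in size, counted without the condition on the same-RNA arrays.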

How the results depend on the processing

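Over 22 alternatives, 10 of processing and 12 with 1 array left out, no member reversed its sign where either value had an unadjusted p below 0.05. In the alternative with each probe as its own feature, the median over a gene's probes was taken, so opposite probes could not count as a reversal. The 2 probes of Ptgs2 differed between the times by -0.37 and 0.44, and the smaller of their unadjusted limma p-values was 0.037. Between 4 h and 20 min 18 of 30 members kept their sign throughout, and 26 of 660 values changed it. Against the same RNA 38 of 660 values changed sign at 4 h and 55 of 660 at 20 min. No alternative of processing called a member. With 1 array left out 0 to 1 member passed between the times, Klf10 without 4 h replicate 2 and Zfp36 without 4 h replicate 5, and 0 in the other comparisons. The median difference of the members ranged from -0.14 to -0.03 between the times, from -0.13 to -0.04 for 4 h against the same RNA and from -0.03 to 0.06, with both signs, for 20 min. Counts over all features moved more. Between the times 28 became 16 with arrays scaled to 1 spread, 0 with array 6 averaged in as deposited, and 12 with the replicate block (pair number). The numbers were not taken to pair the arrays, since deviations of equally numbered arrays correlated at -0.07, 0.16, -0.03 and -0.02, and only number 2 correlated best with its own. With 1 array left out the count lay between 4 and 43: 9, 15 and 13 without 4 h replicates 1, 2 and 3, 12, 4, 9 and 7 without 20 min replicates 1 to 4, and 43, 17 and 8 without same-RNA replicates 1 to 3. For 4 h against the same RNA 3 became 0 with array 6 as deposited, and 2 to 5 with 1 array left out, 5 without 4 h replicate 2. For 20 min against the same RNA 2 became 1 with arrays scaled to 1 spread, and 0 with array 6 as deposited or turned, with only the groups compared in the fit, and with the replicate block. It ranged from 0 to 4 with 1 array left out: 0 without 4 h replicates 1 to 4, 20 min replicates 2 and 4 or same-RNA replicate 2, 1 without 20 min replicates 1 and 3, and 4 without same-RNA replicate 3. The share of called features that were higher at 4 h than at 20 min moved from 46.4% to 61.9% under quantile normalization. The causes were not tested. Spot signal over background was not used, which leaves dim and bright probes mixed.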
